A study of Homo sapiens with 8 samples.

Results

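The 37 RNAs encoded on human mitochondrial DNA were followed in 2 acute myeloid leukaemia cell lines during treatment with chlorprothixene. The members were all genes that the deposited tables place on chrM with a symbol starting MT-, 37 of 55765 gene symbols. They are 13 mRNAs, 2 rRNAs and 22 tRNAs, 28 of them on the plus strand of the chrM reference and 9 (MT-ND6 and 8 tRNAs) on the minus strand. Kasumi-1 carries the RUNX1-RUNX1T1 fusion and NB4 the PML-RARA fusion, and chlorprothixene is a thioxanthene antipsychotic. For each line there was 1 library of cells without drug, and 1 for each of 3 times (6, 12 and 24 h) in 40 uM chlorprothixene. The 8 libraries hold no replicate of any condition. All cells grew in the same serum-supplemented medium. No vehicle control is named in the labels, so the drug and the time in culture cannot be told apart. Levels are the authors' TPM values, transcript abundances that are scaled for gene length and have the same sum in every library. Genes can be compared within a library. Between libraries TPM is relative, since a larger part held by some genes lowers the values of the others. Series of 4 values below run from cells without drug through 6 and 12 to 24 h.

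Human mitochondrial DNA is read from both strands into long precursor RNAs that carry many genes in a row. Most mRNAs and both rRNAs are flanked by tRNAs, and RNase P and the RNase Z enzyme ELAC2 cut the tRNAs out and so free the RNAs between them. The mRNAs encode core subunits of complexes I, III, IV and V of oxidative phosphorylation, while the rRNAs and tRNAs serve the mitochondrial ribosome. A library of fragmented RNA does not separate a mature tRNA from an uncut precursor that spans it. A value given below for a tRNA is therefore the signal over its gene, not a measure of mature tRNA. No strand-specific preparation is named in the sources used here, so reads of a gene and of the RNA from the opposite strand cannot be told apart.

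The tRNAs on which the results turn are shown in 5′ to 3′ orientation as the reference genes of GENCODE 29 (GRCh38), whose coordinates equal those of the deposited tables for all 37 genes. Capitals mark the anticodon. The first 4 were at least 2-fold higher at all 3 times in both lines. They are glutamine tRNA MT-TQ (chrM:4329-4400, minus strand), methionine tRNA MT-TM (chrM:4402-4469), lysine tRNA MT-TK (chrM:8295-8364) and arginine tRNA MT-TR (chrM:10405-10469), the last 3 on the plus strand.
MT-TQ: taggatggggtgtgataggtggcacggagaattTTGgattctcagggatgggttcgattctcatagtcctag
MT-TM: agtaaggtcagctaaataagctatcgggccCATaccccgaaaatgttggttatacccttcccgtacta
MT-TK: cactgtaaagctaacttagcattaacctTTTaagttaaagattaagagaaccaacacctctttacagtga
MT-TR: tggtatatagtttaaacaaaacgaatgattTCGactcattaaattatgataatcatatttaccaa
The next 5 lie on the minus strand. These tRNAs were lower than without drug in all 6 treated libraries, as were 16.9% of all genes tested. They are the alanine, asparagine, cysteine and tyrosine tRNAs of a single cluster (chrM:5587-5655, chrM:5657-5729, chrM:5761-5826 and chrM:5826-5891) and the serine UCN tRNA MT-TS1 (chrM:7446-7514).
MT-TA: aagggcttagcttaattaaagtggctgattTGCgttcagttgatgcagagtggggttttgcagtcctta
MT-TN: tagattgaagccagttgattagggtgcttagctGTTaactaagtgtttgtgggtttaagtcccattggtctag
MT-TC: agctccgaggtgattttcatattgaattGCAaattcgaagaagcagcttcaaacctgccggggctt
MT-TY: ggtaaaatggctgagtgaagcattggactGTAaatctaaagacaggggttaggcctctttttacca
MT-TS1: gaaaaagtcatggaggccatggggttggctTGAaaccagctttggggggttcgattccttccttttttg
The isoleucine tRNA MT-TI (chrM:4263-4331, plus strand) was the one member called lower in Kasumi-1 than in NB4, and its last 3 bases overlap MT-TQ on the opposite strand.
MT-TI: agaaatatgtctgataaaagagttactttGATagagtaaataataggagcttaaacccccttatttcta
The tRNA genes are 59 to 75 bases long. The 7 tRNAs higher in all 6 treated libraries had a median GC content of 38.7% (23.1% to 48.6%) and the 7 lower ones 42.4% (23.5% to 49.3%), so the ranges overlapped.

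All 37 members were detected in every library, with a lowest value of 1.30 TPM (MT-TS1, NB4 at 24 h) and a highest of 25861 TPM (MT-ND2, Kasumi-1 at 24 h). The authors' mean read coverage of these genes in those libraries was 4.33 and 82279 reads per base. Relative depth, read from the ratio of coverage to FPKM, lay between 7.08 and 9.83 in the 8 libraries. The lines carried the myeloid markers set for them (8 of 8 above 0 in both lines, summed 13628 to 21105 TPM in Kasumi-1 against 2280 to 6975 TPM in NB4). The Kasumi-1 markers RUNX1T1, KIT and CD34 summed to 171.7 to 654.1 TPM in Kasumi-1 against 0.0875 to 0.340 TPM in NB4. Erythroid markers stayed at or below 0.497 TPM in Kasumi-1 against 0 in NB4. Lymphoid markers summed to 1.52 to 11.9 TPM in Kasumi-1 against 5.74 to 16.2 TPM in NB4, and epithelial markers to 17.5 to 29.7 TPM in Kasumi-1 against 18.4 to 23.5 TPM in NB4. The nuclear long noncoding RNAs MALAT1 and NEAT1, given as a sign of RNA makeup, summed to 72.9 to 267 TPM in Kasumi-1 against 15.7 to 137 TPM in NB4. MALAT1 was at 23.1, 48.6, 55.2 and 117 TPM in Kasumi-1 against 9.59, 18.2, 34.0 and 21.6 TPM in NB4, above its starting level in all 6 treated libraries and highest at 24 h in Kasumi-1 and at 12 h in NB4 (shared log2 change 1.37, SE 0.30; limma, adjusted p = 0.103). NEAT1 was at 75.8, 24.3, 113 and 151 TPM in Kasumi-1 against 6.13, 88.9, 103 and 92.7 TPM in NB4.

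Mitochondrially encoded RNA made up 8.73%, 7.94%, 10.58% and 17.12% of all TPM in Kasumi-1 against 6.71%, 5.04%, 6.41% and 5.62% in NB4. The share was highest in the Kasumi-1 library at 24 h, and no NB4 library exceeded the lowest Kasumi-1 library. In these bulk libraries, a change in the share of cells with much mitochondrial RNA and a change in RNA per cell cannot be told apart. EEF1A1, a cytosolic elongation factor, was the highest gene in 7 libraries, while MT-ND2 was the highest of all genes in Kasumi-1 at 24 h. Of the 10 highest genes, 4 to 8 were mitochondrial.

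The mRNAs held 86.8% to 88.6% of the summed mitochondrial TPM in Kasumi-1 against 84.6% to 88.0% in NB4, so their part of the total moved little. The sums of tRNAs on each strand moved more. Plus-strand tRNAs took 2.12%, 3.65%, 3.83% and 5.88% of mitochondrial TPM in Kasumi-1 against 2.14%, 4.75%, 6.32% and 5.25% in NB4. Minus-strand tRNAs took 5.60%, 2.54%, 2.76% and 2.58% in Kasumi-1 against 6.25%, 3.01%, 4.29% and 4.62% in NB4. Minus-strand tRNAs thus outweighed plus-strand tRNAs in both libraries without drug, and plus-strand tRNAs outweighed minus-strand tRNAs in all 6 treated libraries. MT-TL1 and MT-TM carried much of the plus-strand sum, with 1.17%, 2.78%, 2.90% and 4.45% together in Kasumi-1 against 0.772%, 2.78%, 3.61% and 2.96% in NB4. The other 12 plus-strand tRNAs, a split made after the values were seen, took 0.951%, 0.873%, 0.934% and 1.43% in Kasumi-1 against 1.37%, 1.97%, 2.71% and 2.28% in NB4. Without MT-TL1 and MT-TM the plus-strand sum was thus below its starting share at 6 and 12 h in Kasumi-1, and below the minus-strand sum in all 8 libraries. The median log2 change of the 14 plus-strand tRNAs was -0.80, -0.46 and 1.16 at 6, 12 and 24 h in Kasumi-1 and -0.42, 0.53 and 0.22 in NB4. All 9 minus-strand genes together held 7.15%, 3.37%, 3.70% and 3.63% in Kasumi-1 against 7.32%, 3.30%, 4.69% and 5.02% in NB4. Strand here is that of the gene, since the strand of the reads is not known. As aligned bases plus-strand tRNAs took 0.184%, 0.314%, 0.330% and 0.525% in Kasumi-1 against 0.186%, 0.416%, 0.567% and 0.466% in NB4. Minus-strand tRNAs took 0.467%, 0.209%, 0.228% and 0.224% by that count in Kasumi-1 against 0.532%, 0.255%, 0.375% and 0.400% in NB4. These shares have no replicate and were not tested.

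**Figure D1:**
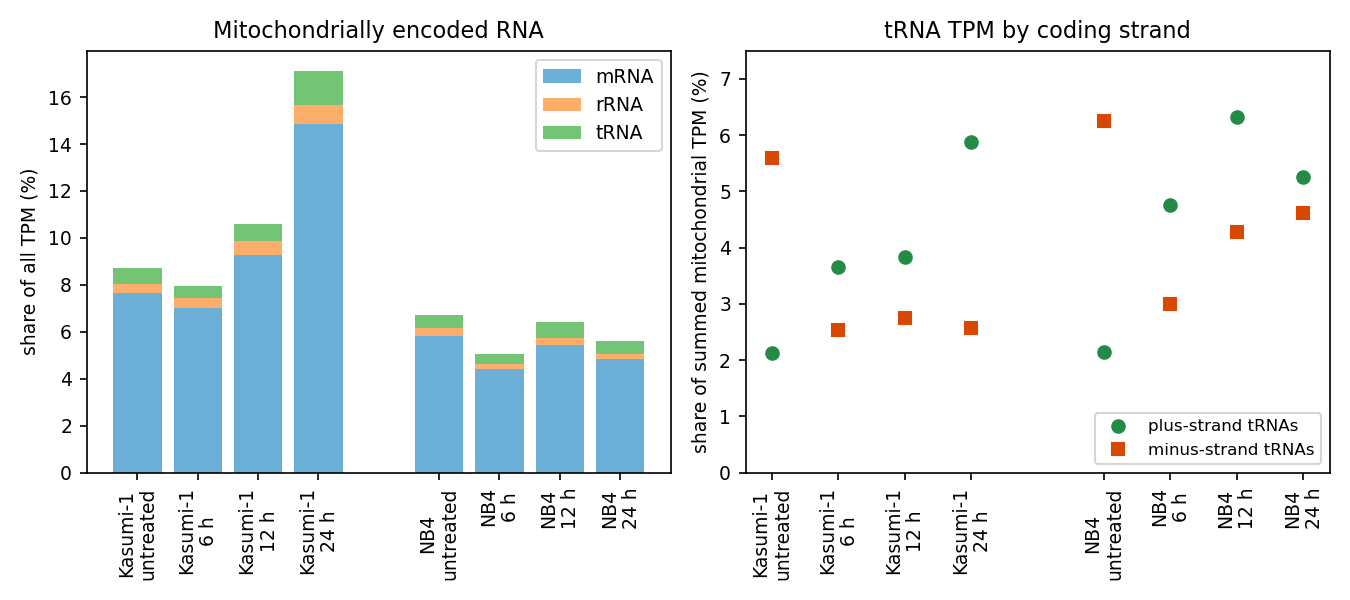
Left, bars of the share of all TPM (%) held by mitochondrially encoded mRNA, rRNA and tRNA in each of the 8 libraries. Right, the share of summed mitochondrial TPM (%) held by the 14 plus-strand tRNAs (circles) and the 8 minus-strand tRNAs (squares), by strand of the gene. The Kasumi-1 library at 24 h has the tallest bar (17.12%), and circles lie above squares in every treated library and below them in both libraries without drug.

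Of the 37 members, 8 were higher than without drug in all 6 treated libraries (12.9% of the 14650 genes tested were), and 7 were lower in all 6 (16.9% of genes). The count of lower members was thus near the share over all genes. The higher ones were MT-TV, MT-TL1, MT-TI, MT-TQ, MT-TM, MT-TK, MT-TR and the mRNA MT-ND2. The lower ones were MT-TA, MT-TN, MT-TC, MT-TY, MT-TS1, MT-TD and MT-TL2, all tRNAs. The treated libraries of a line share that line's library without drug, so the 3 times are not independent. With TPM rescaled to genes not on chrM, MT-TL2 left the lower group and the other 14 stayed. Taken as shares of mitochondrial TPM the lower group had 11 members, with MT-ND5, MT-ND6, MT-TE and MT-TP added, and the higher group was the same 8. Without the Kasumi-1 library at 24 h, whose mitochondrial share stands apart, the higher group was again the same 8, and the lower group had 10 members, with MT-TW, MT-ND6 and MT-TE added.

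At single times, members at least 2-fold changed went both ways. At 6 h, 5 members were higher (6.44% of genes) and 11 lower (2.99% of genes) in Kasumi-1, while 5 were higher (3.06% of genes) and 7 lower (2.27% of genes) in NB4. At 12 h, 8 were higher (4.85% of genes) and 3 lower (3.52% of genes) in Kasumi-1, while 6 were higher (5.6% of genes) and 2 lower (2.37% of genes) in NB4. At 24 h, 16 were higher (5.11% of genes) and 1 lower (3.88% of genes) in Kasumi-1, while 6 were higher (6.51% of genes) and 4 lower (2.88% of genes) in NB4. The lower members were thus most numerous at 6 h in both lines, and the higher members most numerous at 24 h in Kasumi-1.

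**Figure D2:**
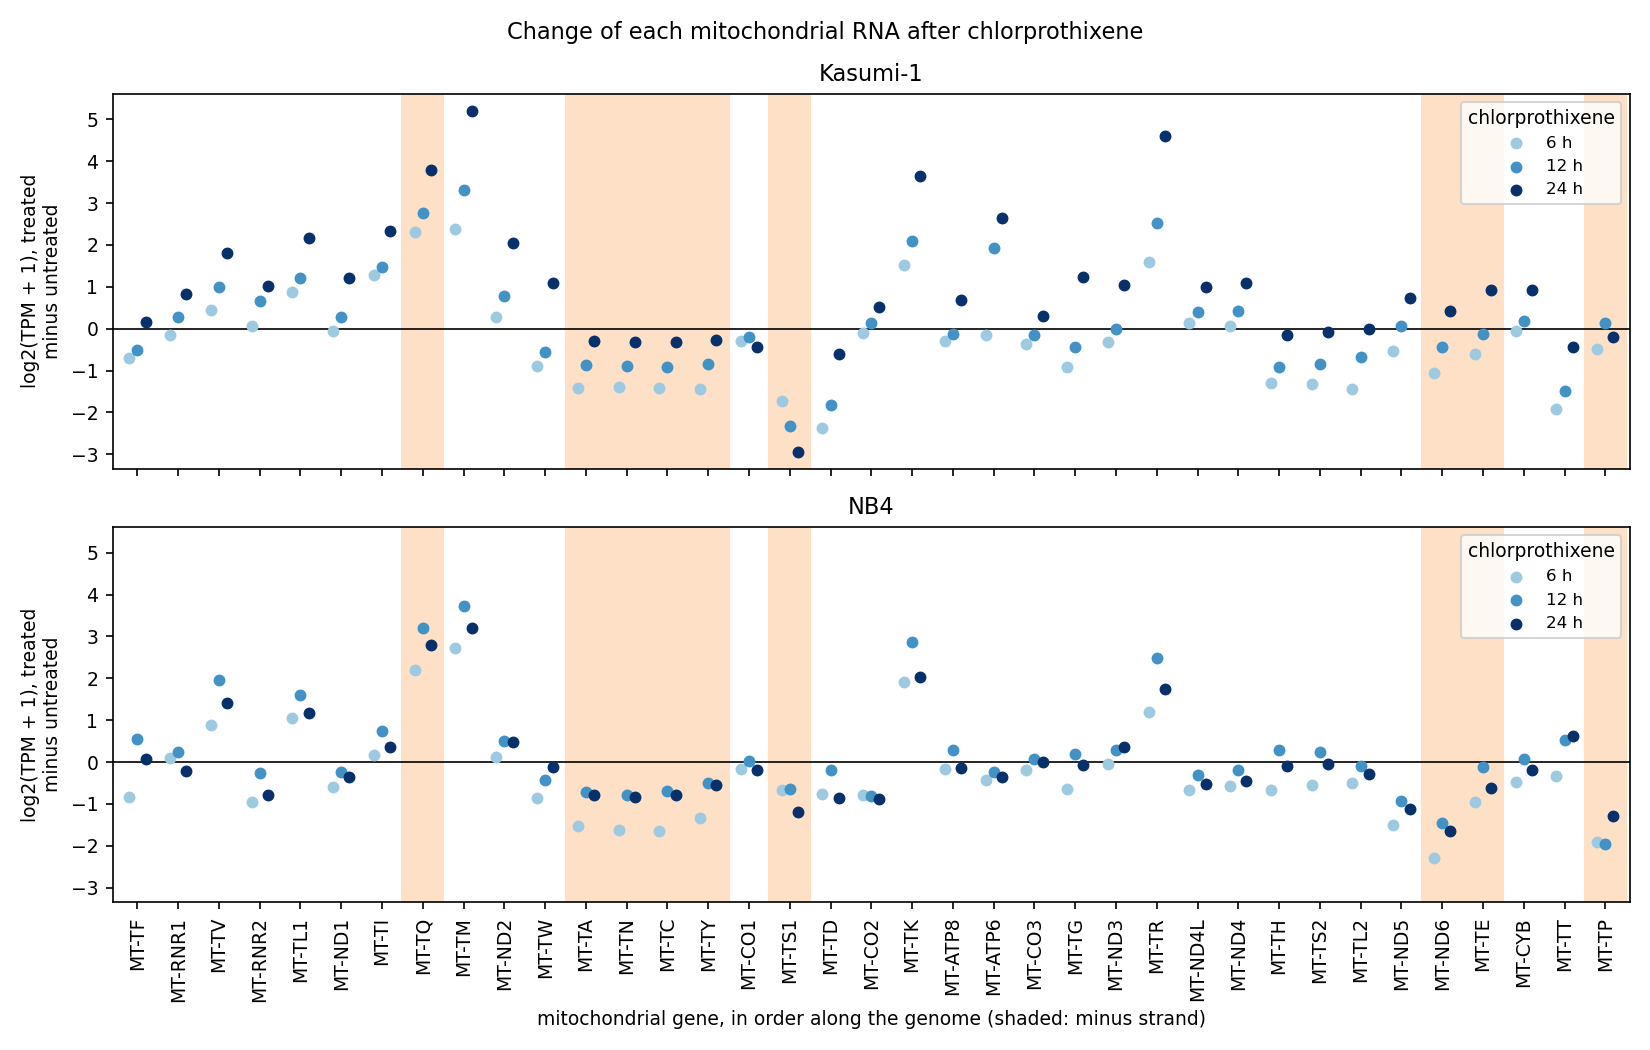
Change of each of the 37 mitochondrial RNAs in order along the genome, as log2(TPM + 1) of a treated library minus that of the library without drug, for Kasumi-1 (top) and NB4 (bottom). Points are single libraries at 6, 12 and 24 h, and shading marks minus-strand genes. MT-TQ, MT-TM, MT-TK and MT-TR stand above 1 at all times in both panels, and the cluster from MT-TA to MT-TY lies below 0.

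The value of the glutamine tRNA gene MT-TQ rose in both lines. It was at 18.2, 93.7, 129 and 264 TPM in Kasumi-1 against 17.98, 85.7, 175 and 132 TPM in NB4. The lines started at near-equal levels, and every treated library was at least 4.76-fold above its own line without drug. The mean change over the 3 times and both lines was 2.84 on the log2 scale (SE 0.26; limma, adjusted p = 0.0443), upward in 6 of 6 treated libraries. MT-TQ was the only member past the threshold for the response shared by the lines, among 4 genes higher (0.0273% of those tested) and 0 lower. In that test the spread is how far the lines differ after a common change, not the spread of cultures. The call was lost in 10 of 16 alternatives (adjusted p 0.00996 to 0.591), among them leaving out either library without drug or any library at 6 or 12 h. MT-TQ has plus-strand tRNAs on both sides, MT-TI with a 3-base overlap and MT-TM after a gap of 1 base, and both were also higher in all 6 treated libraries. How far their reads enter the MT-TQ value was not tested.

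The methionine tRNA MT-TM, which serves both initiation and elongation in mitochondria, had the largest change. Its level was 92.4, 484, 921 and 3451 TPM in Kasumi-1 against 72.1, 479.9, 961 and 669 TPM in NB4. At 24 h this was 37.3-fold the level without drug in Kasumi-1 against 9.28-fold in NB4. The shared log2 change was 3.42 (SE 0.45; limma, adjusted p = 0.0625). It passed when the times of a line were treated as repeats or when either 24 h library was left out. MT-TM directly precedes the complex I mRNA MT-ND2, with no base between them, and the ratio of MT-TM to MT-ND2 TPM was 0.0147, 0.0631, 0.0857 and 0.133 in Kasumi-1 against 0.0181, 0.110, 0.170 and 0.119 in NB4. The value of the tRNA gene was thus higher relative to its neighbour in all 6 treated libraries.

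The lysine tRNA MT-TK was at 19.5, 57.9, 86.7 and 256 TPM in Kasumi-1 against 17.8, 70.1, 137 and 75.3 TPM in NB4. The arginine tRNA MT-TR was at 36.5, 113, 217 and 908 TPM in Kasumi-1 against 34.2, 79.1, 195 and 117 TPM in NB4. Both had near-equal levels in the 2 lines without drug, were highest at 24 h in Kasumi-1 and were highest at 12 h in NB4. MT-TM and the nuclear RNA MALAT1 were highest in the same 2 libraries, and the part of overall RNA makeup in these changes was not tested. The shared log2 changes of MT-TK (2.35, SE 0.42, limma adjusted p = 0.0814) and MT-TR (2.36, SE 0.53, limma adjusted p = 0.104) did not pass. MT-TR passed without either 24 h library and MT-TK without the NB4 library at 24 h.

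MT-TQ, MT-TM, MT-TK and MT-TR were the 4 members at least 2-fold higher at all 3 times in both lines (0.28% of genes were), and 0 members were 2-fold lower at all 3 times in both (0.0341% of genes). In Kasumi-1 MT-TI was the fifth such member (5 of 37, against 1.88% of genes), and in NB4 it was the leucine UUR tRNA MT-TL1 (5 of 37, against 2.03% of genes). MT-TL1, which lies behind the 16S rRNA gene, had 930.3, 1721, 2146 and 4168 TPM in Kasumi-1 against 446, 923, 1354 and 998 TPM in NB4. Its ratio to the following mRNA MT-ND1 was 0.226, 0.435, 0.429 and 0.439 in Kasumi-1 against 0.141, 0.442, 0.509 and 0.407 in NB4, 0.407 or above in every treated library. The valine tRNA MT-TV, which lies between the rRNA genes, had 94.7, 129.9, 191 and 332 TPM in Kasumi-1 against 49.4, 92.6, 195 and 133 TPM in NB4. MT-TI had 65.1, 161, 183 and 329 TPM in Kasumi-1 against 464, 519, 781 and 597 TPM in NB4. Its levels did not overlap between the lines, and its change was smaller in NB4 at each time.

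**Figure D3:**
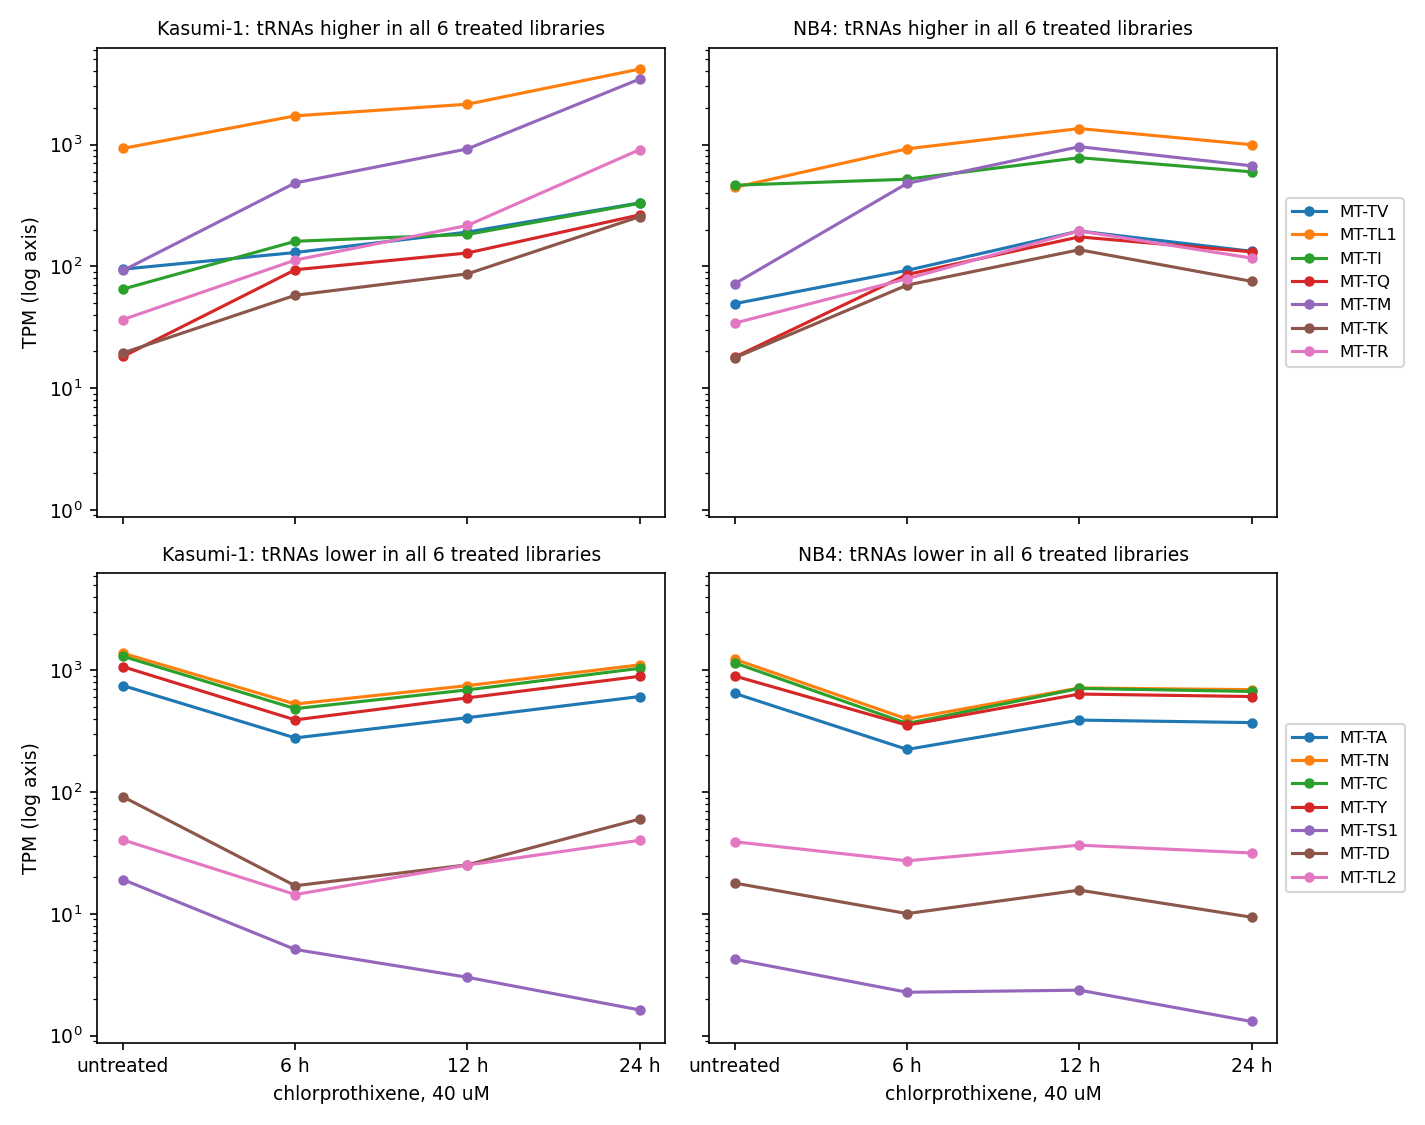
TPM (log axis) of the 7 tRNAs higher and the 7 tRNAs lower than without drug in all 6 treated libraries, in Kasumi-1 (left) and NB4 (right), without drug and at 6, 12 and 24 h with 40 uM chlorprothixene. Each point is 1 library. MT-TM reaches 3451 TPM in Kasumi-1 at 24 h, and MT-TS1 is at 1.62 TPM there.

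The 4 clustered minus-strand tRNAs were lowest at 6 h in both lines. MT-TA (alanine) was at 748, 278, 408 and 608 TPM in Kasumi-1 against 645, 224, 389.8 and 372 TPM in NB4. MT-TN (asparagine) was at 1379, 528, 748 and 1107 TPM in Kasumi-1 against 1229, 398, 716 and 693 TPM in NB4. At 6 h they stood at 0.372 and 0.383 of the level without drug in Kasumi-1 against 0.347 and 0.323 in NB4. MT-TC (cysteine) was at 1302, 484, 690.0 and 1038 TPM in Kasumi-1 against 1147, 365, 709.9 and 669.9 TPM in NB4, and MT-TY (tyrosine) was at 1069, 391, 593 and 892 TPM in Kasumi-1 against 896, 354, 638 and 609 TPM in NB4. The 4 tRNAs kept a nearly fixed proportion, as the ratio of MT-TN to MT-TA lay between 1.78 and 1.91, that of MT-TC to MT-TA between 1.63 and 1.82 and that of MT-TY to MT-TA between 1.39 and 1.64 over the 8 libraries. Their shared log2 changes were -0.94 for MT-TA, -0.97 for MT-TN, -0.96 for MT-TC and -0.82 for MT-TY (SE 0.16 for each; limma, adjusted p 0.0774 to 0.0869), downward in 6 of 6 treated libraries and not past the threshold. The tryptophan tRNA MT-TW, the plus-strand neighbour of this cluster, was far lower, at 11.3, 5.59, 7.39 and 25.02 TPM in Kasumi-1 against 7.12, 3.47, 5.05 and 6.44 TPM in NB4.

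MT-TS1 was the scarcest member in 7 libraries (in Kasumi-1 without drug MT-TW was lower) and the one member at least 2-fold lower at all 3 times in Kasumi-1 (0.655% of genes were). Without the library at 24 h, MT-TD and MT-TT joined it. It was at 19.1, 5.09, 3.01 and 1.62 TPM in Kasumi-1 against 4.23, 2.27, 2.36 and 1.30 TPM in NB4. It was lower at each later time in Kasumi-1, against the direction of most members, and its coverage there went down to 5.16 reads per base. The shared log2 change of -1.58 (SE 0.36; limma, adjusted p = 0.105) did not pass. The aspartate tRNA MT-TD, next to it on the plus strand, was at 91.3, 17.0, 25.2 and 60.0 TPM in Kasumi-1 against 17.9, 10.0, 15.6 and 9.37 TPM in NB4. The leucine CUN tRNA MT-TL2 was at 40.4, 14.4, 25.1 and 40.1 TPM in Kasumi-1 against 39.0, 27.2, 36.6 and 31.6 TPM in NB4, so that Kasumi-1 at 24 h was back at its starting level.

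In NB4 the 2 members at least 2-fold lower at all 3 times (0.703% of genes) were both on the minus strand, the mRNA MT-ND6 and the proline tRNA MT-TP. MT-TP was at 155, 111, 170.5 and 135 TPM in Kasumi-1 against 166, 43.5, 41.9 and 67.2 TPM in NB4. At 6, 12 and 24 h it was at 0.715, 1.10 and 0.870 of its starting level in Kasumi-1, and at 0.262, 0.252 and 0.405 of it in NB4. The glutamate tRNA MT-TE, the remaining minus-strand tRNA, was at 194, 126, 176 and 367 TPM in Kasumi-1 against 82.4, 42.2, 75.5 and 53.3 TPM in NB4.

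The other plus-strand tRNAs, MT-TH, MT-TS2, MT-TT, MT-TF and MT-TG, were all below their starting level at 6 h in both lines. At 12 h all were below it in Kasumi-1 and above it in NB4, and at 24 h they had no common direction. MT-TH (histidine) was at 88.4, 35.2, 46.3 and 79.0 TPM in Kasumi-1 against 68.2, 42.4, 83.5 and 63.8 TPM in NB4, and MT-TS2 (serine AGY), which abuts it, at 69.9, 27.5, 38.6 and 66.3 TPM in Kasumi-1 against 59.7, 40.4, 70.2 and 57.3 TPM in NB4. Both were low at 6 h and near their starting level at 24 h. MT-TT (threonine) was below its starting level at all times in Kasumi-1, at 155, 40.3, 54.6 and 115 TPM, and above it from 12 h in NB4, at 62.7, 49.5, 90.3 and 96.4 TPM. MT-TF (phenylalanine) was at 109, 66.4, 76.9 and 122 TPM in Kasumi-1 against 53.4, 29.7, 78.5 and 56.2 TPM in NB4, and MT-TG (glycine) at 49.4, 25.6, 36.5 and 118 TPM in Kasumi-1 against 43.6, 27.3, 50.1 and 41.2 TPM in NB4. Over all 22 tRNAs the mean change had the same sign in both lines for 20, against 5 of the 13 mRNAs and 1 of the 2 rRNAs, beside 60.8% of the 14650 genes. These shares were not tested against each other.

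Among the rRNAs, the small-subunit 12S rRNA MT-RNR1 was at 1268, 1139.9, 1528 and 2256 TPM in Kasumi-1 against 753, 806, 896 and 653 TPM in NB4. The large-subunit 16S rRNA MT-RNR2 was at 2904, 3017, 4585 and 5857 TPM in Kasumi-1 against 2609.9, 1337, 2167 and 1506 TPM in NB4. MT-RNR2 was above its starting level at all times in Kasumi-1 and below it at all times in NB4, a pattern shared by 4.92% of genes (6.7% had the reverse). The ratio of 16S to 12S was 2.29, 2.65, 3.001 and 2.60 in Kasumi-1 against 3.46, 1.66, 2.42 and 2.31 in NB4. The rRNA share of mitochondrial TPM stayed between 3.84% and 5.78% in all libraries, and the sources used here do not name the RNA selection of the libraries.

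The mRNAs of complex I, the NADH dehydrogenase, held 37%, 41.6%, 40.6% and 46.1% of mitochondrial TPM in Kasumi-1 against 34.9%, 33.4%, 33.9% and 35.3% in NB4. MT-ND2 was the one mRNA above its starting level in all 6 treated libraries, at 6297, 7680.5, 10750.3 and 25861 TPM in Kasumi-1 against 3993, 4366, 5658 and 5608 TPM in NB4. Its shared log2 change of 0.70 did not pass (SE 0.32; limma, adjusted p = 0.274), and the step at 24 h was much larger in Kasumi-1. MT-ND4L and MT-ND4, which overlap by 7 bases and are carried on a shared transcript, moved together. MT-ND4L had 8808, 9621, 11614 and 17637 TPM in Kasumi-1 against 6944, 4404, 5579 and 4842 TPM in NB4, and MT-ND4 had 7899.7, 8255, 10675 and 16915 TPM in Kasumi-1 against 6064, 4113, 5282 and 4454 TPM in NB4. Both were above their starting level at all times in Kasumi-1 and below it at all times in NB4, and their ratio lay between 1.04 and 1.17 in all libraries.

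MT-ND1 was at 4119, 3956, 5003 and 9489 TPM in Kasumi-1 against 3161, 2086, 2662 and 2449 TPM in NB4, and MT-ND3 at 1989, 1601, 1963 and 4131 TPM in Kasumi-1 against 1334, 1296, 1641 and 1709.7 TPM in NB4. MT-ND5, the lowest plus-strand mRNA in all 8 libraries, was at 1826, 1265, 1919 and 3055 TPM in Kasumi-1 against 1165, 413, 612 and 539 TPM in NB4. MT-ND6, the single mRNA on the minus strand, was at 1352, 654, 998 and 1806 TPM in Kasumi-1 against 721, 147, 261 and 229 TPM in NB4. Both were lowest at 6 h in each line, and at 24 h MT-ND6 was at 1.34 of its starting level in Kasumi-1 and at 0.317 of it in NB4. The shared log2 change of MT-ND6 was -1.08 (SE 0.34; limma, adjusted p = 0.163) and did not pass.

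**Figure D4:**
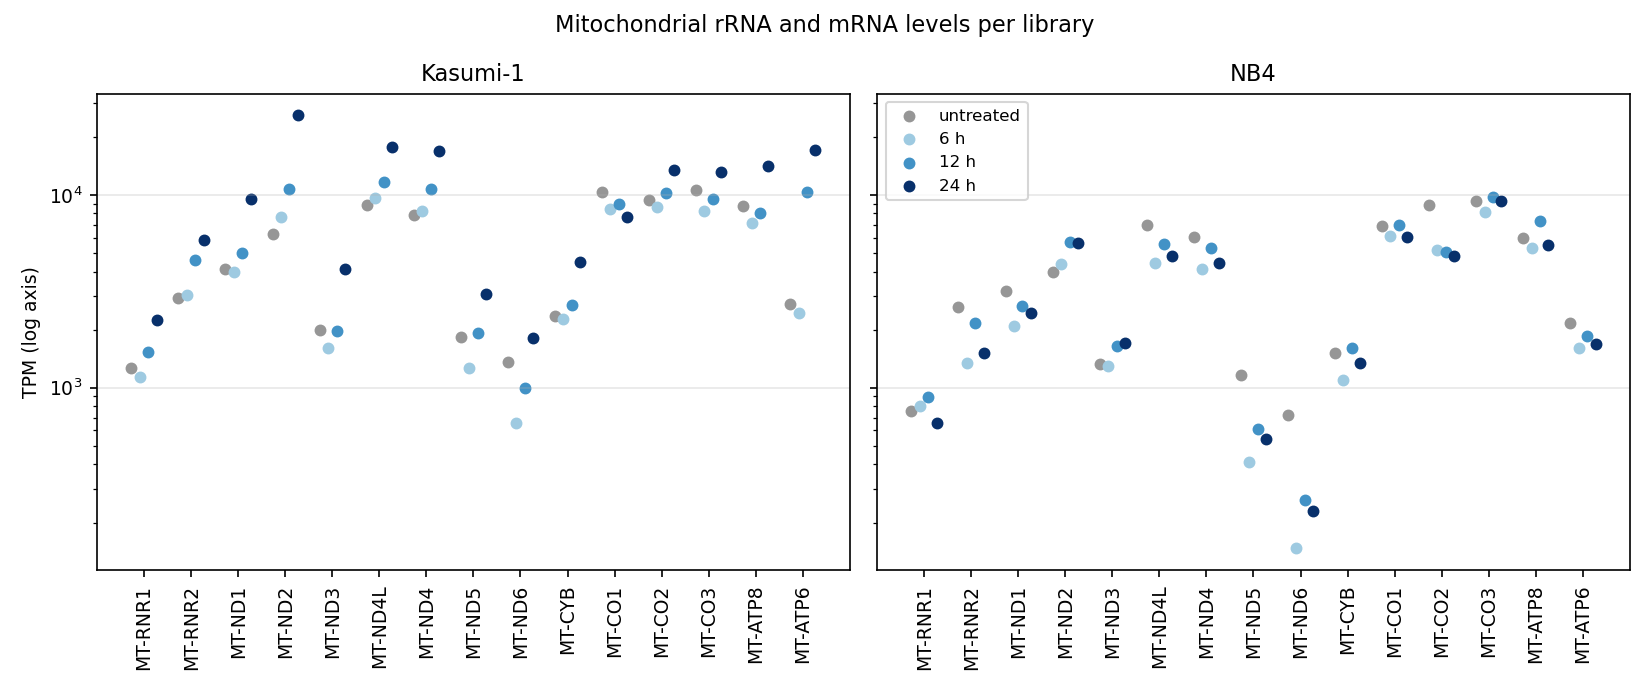
TPM (log axis) of the 2 rRNAs and 13 mRNAs in each library of Kasumi-1 (left) and NB4 (right), coloured by time. Each point is 1 library. In Kasumi-1 the 24 h point is the highest for every gene but MT-CO1. In NB4 the point without drug lies above all treated ones for MT-RNR2, MT-ND1, MT-ND4L, MT-ND4, MT-ND5, MT-ND6, MT-CO2 and MT-ATP6.

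The mRNAs of complex IV, cytochrome c oxidase, took a smaller share at each later time in Kasumi-1, with 34.7%, 32.0%, 27.1% and 19.9% of mitochondrial TPM, against 37.3%, 38.7%, 33.9% and 35.9% in NB4. MT-CO1 was at 10302, 8425, 8971 and 7626 TPM in Kasumi-1 against 6881, 6146, 7000.1 and 6049 TPM in NB4. It was the one mRNA below its starting level at all 3 times in Kasumi-1, including 24 h, when the other 12 were above theirs. MT-CO2 was at 9370.0, 8677, 10266 and 13374 TPM in Kasumi-1 against 8885, 5192, 5039.8 and 4836 TPM in NB4. MT-CO3 was at 10594, 8284, 9472 and 13077 TPM in Kasumi-1 against 9241, 8144, 9686 and 9317 TPM in NB4, where it was the highest mitochondrial RNA in all 4 libraries. The complex III mRNA MT-CYB was at 2349.6, 2273, 2674 and 4469.8 TPM in Kasumi-1 against 1521, 1098, 1609 and 1339 TPM in NB4.

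The median log2 change of the 13 mRNAs was -0.14, 0.13 and 0.93 at 6, 12 and 24 h in Kasumi-1 and -0.47, -0.20 and -0.36 in NB4, beside medians of all genes between -0.08 and 0.01. At 6 h 1 mRNA was at least 2-fold lower in Kasumi-1 (MT-ND6), beside 2.99% of genes. In NB4 there were 2 (MT-ND5 and MT-ND6), beside 2.27% of genes. At 24 h 6 mRNAs were at least 2-fold higher in Kasumi-1 (5.11% of genes were) against 0 in NB4 (6.51% of genes). With TPM rescaled to genes not on chrM, 7 mRNAs were at least 2-fold higher in Kasumi-1 at 24 h. Levels of plus-strand mRNAs spread 5.80- to 19.7-fold within a library. Spearman's rho of level with position along the strand was between -0.22 and -0.52 (12 mRNAs), as a description only, since the mRNAs share a library and precursors.

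The complex V mRNAs MT-ATP8 and MT-ATP6 encode ATP synthase subunits from a single bicistronic transcript, and their reading frames share 46 bases (chrM:8527-8572, plus strand). The shared stretch runs from the start codon of MT-ATP6 to the stop codon of MT-ATP8, both in capitals.
Shared by MT-ATP8 and MT-ATP6: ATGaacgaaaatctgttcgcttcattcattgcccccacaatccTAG
MT-ATP8 was at 8752, 7160.2, 8069 and 14113 TPM in Kasumi-1 against 5993, 5311, 7352 and 5466 TPM in NB4. MT-ATP6 was at 2704, 2446, 10341 and 17025 TPM in Kasumi-1 against 2169, 1611, 1848 and 1685 TPM in NB4. The ratio of MT-ATP8 to MT-ATP6 was therefore 3.24, 2.93, 0.780 and 0.829 in Kasumi-1 against 2.76, 3.30, 3.98 and 3.24 in NB4, which puts the Kasumi-1 libraries at 12 and 24 h apart from the other 6. How the quantification divided reads in the shared bases between the genes is not given in the sources used here.

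**Figure D5:**
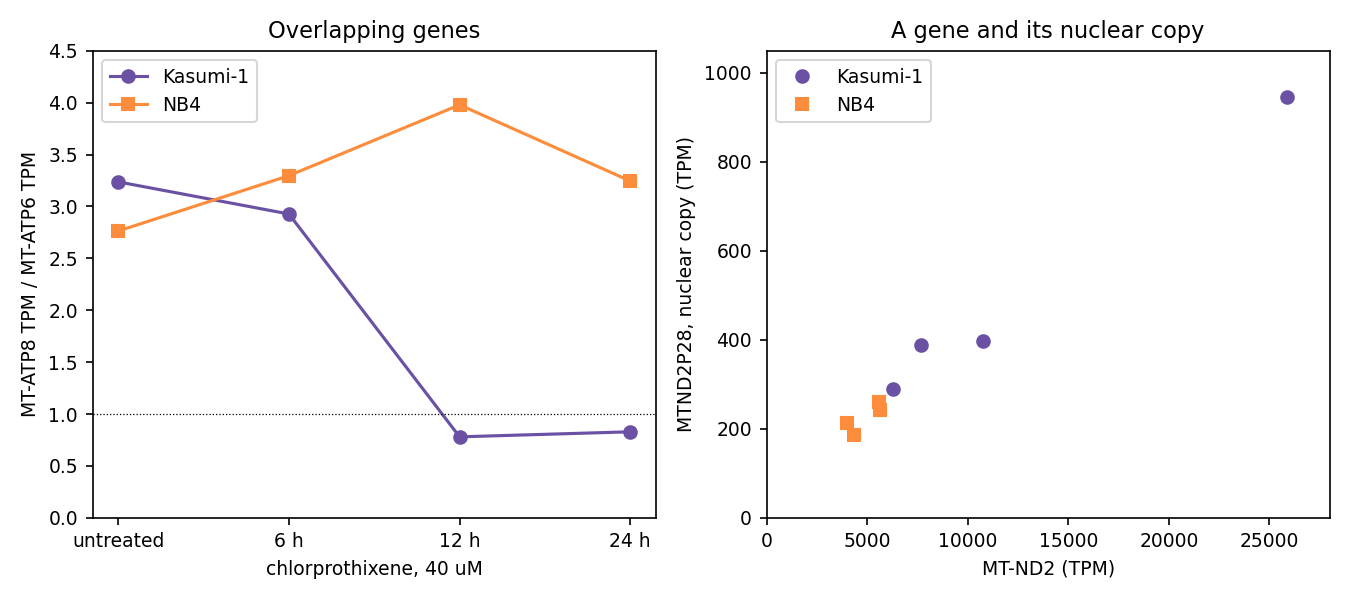
Left, ratio of MT-ATP8 to MT-ATP6 TPM in each library of Kasumi-1 and NB4 without drug and at 6, 12 and 24 h; the dotted line marks a ratio of 1. Right, TPM of MT-ND2 against TPM of its nuclear copy MTND2P28, 1 point per library. The ratio is below 1 in Kasumi-1 at 12 and 24 h only, and the copy is highest (946 TPM) in the library where MT-ND2 is highest.

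Nuclear DNA holds copies of mitochondrial genes, and reads that fit both places can be assigned to either. Of 188 such copies listed, 171 to 178 were at 0 in a library, and their summed level was 307, 405, 418 and 1084 TPM in Kasumi-1 against 228, 215, 269.5 and 277 TPM in NB4. MTND2P28 on chromosome 1 (hg19, chr1:565020-566063), 98.2% identical to MT-ND2, gave most of it, with 289, 388, 397 and 946 TPM in Kasumi-1 against 213, 187, 241 and 260.3 TPM in NB4. MTATP6P1 (hg19, chr1:569076-569756), 98.5% identical to MT-ATP6, was at 2.64, 2.21, 2.46 and 118 TPM in Kasumi-1 against 3.79, 19.4, 15.2 and 2.49 TPM in NB4. MTND4P12, 95.6% identical to MT-ND4, was at most 10.7 TPM, in Kasumi-1 at 24 h. The copies thus had a small part of the level of their mitochondrial genes in each library, and the part of misassigned reads in MT-ND2 and MT-ATP6 was not tested.

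Between the lines, over all 4 times, 20 of the 37 members were higher in Kasumi-1 (27.8% of genes were) and 1, MT-TI, was lower (27.5% of genes). MT-ND6 differed most, by 1.99 on the log2 scale (SE 0.30; limma, adjusted p = 0.00137). MT-TI was lower by a log2 difference of -1.86 (SE 0.29; limma, adjusted p = 0.00155), and the 4 Kasumi-1 levels lay below the 4 NB4 levels. MT-TE, the minus-strand neighbour of MT-ND6, was higher by 1.69 (SE 0.26; limma, adjusted p = 0.00155) and MT-ND5 by 1.60 (SE 0.27; limma, adjusted p = 0.00247). MT-ATP6 was higher by 1.69 (SE 0.50; limma, adjusted p = 0.0253), a call lost without any 1 of the libraries at 12 or 24 h (adjusted p over the alternatives 0.0151 to 0.1002). MT-TD was higher by 1.55 (SE 0.35; limma, adjusted p = 0.00893). MT-TL1 (1.17, SE 0.23), MT-ND2 (1.15, SE 0.28), MT-ND4L (1.10, SE 0.25) and MT-RNR2 (1.09, SE 0.27) followed, with adjusted p from limma of 0.00480, 0.0111, 0.00939 and 0.0131. MT-ND4, MT-TP, MT-ND1, MT-CYB, MT-RNR1, MT-TW, MT-CO2, MT-TF, MT-TV, MT-ND3 and MT-CO1 were higher by 0.43 to 1.08. Several of these calls rest on the settings, since of 15 alternatives 11 lost that of MT-CO1, 10 that of MT-ND3, 8 that of MT-TV, 7 each those of MT-CO2 and MT-TP, 6 that of MT-TF and 4 that of MT-TW, in most cases on leaving out 1 library. The clustered MT-TA, MT-TN, MT-TC and MT-TY were not among the members called. The 2 lines have 1 culture per condition, so these p-values set the line difference against its change over time and not against other cultures.

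No member passed the limma test of a difference in response between the lines, where 0.041% of all genes passed as higher and 0.0887% as lower in Kasumi-1. With p unadjusted and under 0.05, 2 members were higher (4.22% of genes) and 1 was lower (6.37% of genes). The 3 smallest p-values belonged to MT-TP (difference of log2 changes 1.54, adjusted p = 0.326), MT-CO2 (1.001, adjusted p = 0.428) and MT-TS1 (-1.50, adjusted p = 0.471). For the shared response, limma without adjustment put 7 members on the higher side (9.3% of genes) and 8 on the lower side (11.1% of genes) with p under 0.05. All 7 on the higher side were tRNAs, and the lower side held 7 tRNAs and MT-ND6. The test of a difference in response takes the 3 times of a line as repeats. Change over time thus adds to its spread, and 1 library per line stands for cells without drug. A member that did not pass there is not shown to respond alike in the lines.

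None of the nuclear genes listed as making, cutting, modifying, charging or degrading mitochondrial RNA or maintaining mitochondrial DNA passed for the shared response. Of 79 such genes in 7 lists, 77 were tested, and 0 were called in either direction (limma; with p unadjusted and under 0.05, 1 was higher, against 9.3% of all genes, and 43 were lower, against 11.1%). Their median log2 change was -0.44, against -0.03 for all genes. At that unadjusted threshold, 5 of 9 transcription genes, 9 of 12 RNA processing genes, 6 of 9 RNA stability genes, 7 of 13 modification genes, 13 of 19 aminoacyl-tRNA synthetases and 3 of 10 DNA maintenance genes were lower, and 0 of 5 nuclear regulators, each beside the same 11.1% of all genes. The lists themselves were not tested. PTCD2, a pentatricopeptide protein of mitochondrial RNA processing, was at 21.7, 6.86, 5.30 and 6.95 TPM in Kasumi-1 against 10.8, 7.56, 7.56 and 7.15 TPM in NB4. MRM2, which methylates the 16S rRNA, was at 29.2, 25.2, 19.8 and 28.3 TPM in Kasumi-1 against 87.9, 28.7, 25.8 and 29.5 TPM in NB4. The largest upward values belonged to FASTKD5, an RNA processing protein, and ESRRA, a nuclear receptor that drives mitochondrial genes. FASTKD5 was at 36.2, 32.7, 34.0 and 31.3 TPM in Kasumi-1 against 20.8, 34.1, 32.6 and 34.1 TPM in NB4, and ESRRA at 39.0, 44.4, 50.8 and 56.7 TPM in Kasumi-1 against 60.0, 66.8, 96.9 and 83.7 TPM in NB4.

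While most mitochondrial RNAs that passed were higher in Kasumi-1, 40 of the 77 nuclear genes were lower there (27.5% of all genes were) and 5 higher (27.8% of all genes). Of the 10 with the largest called difference, 9 were lower in Kasumi-1. TFAM, which packages mitochondrial DNA and starts its transcription, was lower by a log2 difference of -1.17 (SE 0.15; limma, adjusted p = 0.000656), with 67.6, 41.0, 37.7 and 34.7 TPM in Kasumi-1 against 109, 112, 98.1 and 82.3 TPM in NB4. SLIRP, which stabilises mitochondrial mRNAs, was at 121, 71.2, 76.5 and 53.3 TPM in Kasumi-1 against 152, 192, 183 and 151 TPM in NB4 (log2 difference -1.12). The RNase P subunit HSD17B10 (-0.99), the helicase TWNK (-1.18), the FASTK family proteins FASTKD3 (-1.80) and FASTKD2 (-1.08), the synthetases NARS2 (-1.48) and YARS2 (-1.09) and the 16S methyltransferase MRM1 (-1.02) were lower as well. MTERF2, a member of the mitochondrial termination factor family, was higher, by 1.76. For the response difference 0 of the 77 passed (limma; with p unadjusted and under 0.05, 1 was higher, against 4.22% of all genes, and 5 were lower, against 6.37%, which is near the background), and the largest values were -1.14 for PTCD2, -1.05 for SLIRP, 0.67 for the mitochondrial topoisomerase TOP1MT and 1.36 for MRM2.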

How the data were processed

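RNA of 8 libraries, 1 per cell line and time, was column-purified, treated with DNase and made into TruSeq libraries, per the labels' protocols. Per the submitters' processing notes, HISAT2, StringTie and hg19 were used; the sources used here give no versions, annotation or strand setting. The deposited TPM values are scaled for length and to the same sum per library, the deposited FPKM values for length and depth, and the deposited coverage values are a signal, the mean reads per base, per the file headers. Counts and read totals were not used here, so no count test or counting interval is given. Values of rows with 1 symbol were added up.

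The test set was 14650 genes (mean TPM 1 or higher). Two-sided tests on log2(TPM + 1) came from limma 3.58.1 in R 4.3.3, by lmFit, contrasts.fit and eBayes (trend on), and p was adjusted over all these genes by Benjamini and Hochberg, with 0.05 as threshold. A fold on this scale understates changes of low genes. The shared response (mean of 6, 12 and 24 h minus untreated) and the line difference (Kasumi-1 minus NB4) came from a fit with time and line as additive terms, and the response difference from line, treated or untreated, and their product, with times as repeats. Each member passed the filter. The fits were run on simulated data with independent noise in each value and known changes added, which cannot show how replicate cultures would differ. The samples come from separate conditions, and p-values measure only the spread between these libraries. Within-line changes and shares were not tested.

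All members were described; those past a threshold were named, with full statistics for the 10 largest, otherwise the 3 smallest p. Nuclear genes past a threshold were named, at most 10 by size, otherwise the 2 largest changes each way among those averaging 5 TPM or more; nuclear copies reaching 10 TPM were named. The members and lists were chosen with earlier results of these data known. Sequences are from GENCODE 29 transcripts (GRCh38), matched by gene ID for 37 of 37 members. An anticodon was marked where its known triplet followed a T, or else a C, once in the middle of the gene. Software for tables and plots was matplotlib 3.10.9, numpy 2.4.6, pandas 2.3.3 and Python 3.11.15. Alternatives changed the pseudocount, filter, unit, scaling, model and libraries.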

Additional observations from a re-analysis of the deposited data

Results flagged for a closer look

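For 3 members every treated Kasumi-1 library lay above its library without drug and every treated NB4 library lay below its own, a pattern that 4.92% of all genes had (6.7% had the opposite one). The mean log2 change in Kasumi-1 minus that in NB4 was 1.25 for the 16S rRNA MT-RNR2, 1.01 for MT-ND4L and 0.93 for MT-ND4. The fitted difference in response did not pass for any of them (limma, adjusted p = 0.484, 0.520 and 0.590). MT-ND4L and MT-ND4 overlap and are carried on a shared transcript, so they are not independent. The 3 times of a line share 1 library without drug.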

How the results depend on the processing

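No paired analysis by replicate number was possible because the labels carry none and each condition has 1 library; the fit of the shared response has line and time as terms and so already compares libraries within a line, and the fit with no line term drops that. For the shared response, the count of members higher was 1 in the main analysis and 0 with a pseudocount of 0.1, with no filter, with FPKM and with no line term, 2 with times as repeats and 0 to 4 on leaving out 1 library; members lower stayed at 0 in each of these. Over all genes, 4 higher and 0 lower became 0 higher with a pseudocount of 0.1, with no filter and with no line term, 1 higher with FPKM, 21 higher and 6 lower with a mean of at least 5 TPM, 22 higher and 5 lower with TPM rescaled to genes not on chrM, and 78 higher and 55 lower with times as repeats; leaving out 1 library gave 0 to 43 higher and 0 to 7 lower. The log2 change of MT-TQ stayed between 2.66 and 3.03 on leaving out 1 library. For the line difference, the 20 members higher became 8 with no filter and 12 to 16 on leaving out 1 library (12 without the Kasumi-1 or without the NB4 library at 24 h), and MT-TI stayed the 1 lower. For the response difference, 6 genes higher and 13 lower became 256 and 272 with no filter, and 0 to 14 and 0 to 17 on leaving out 1 treated library; it could not be fitted without a library from untreated cells. In Kasumi-1 the 1 member 2-fold lower at all times became 9 as a share of mitochondrial TPM and 3 without the library at 24 h. The 7 members lower in all treated libraries became 11 as a share of mitochondrial TPM, and 10 without the Kasumi-1 library at 24 h. The last 2 sets of alternatives were chosen after seeing the data. Counted as aligned bases in place of TPM, the mean treated minus untreated share in percentage points was -0.0404 for tRNA (-0.639 by TPM), 0.951 for rRNA (0.470), -0.631 for the minus strand (-3.58) and 0.206 for plus-strand tRNA (2.33) in Kasumi-1, and 0.109 for tRNA (1.03), -1.49 for rRNA (-0.725), -0.644 for the minus strand (-2.98) and 0.297 for plus-strand tRNA (3.30) in NB4. Without MT-TL1 and MT-TM, also chosen after seeing the data, the plus-strand tRNA value was 0.128 in Kasumi-1 and 0.954 in NB4. The log2 changes of the members called and these mean changes in share kept their sign in the alternatives run. The median over the 37 members did not: for the shared response it was -0.11, but 0.09 without the NB4 library from untreated cells and 0.02 without that at 24 h, and for the response difference it was 0.22, but -0.14 without the Kasumi-1 library at 24 h. The cause of these shifts was not tested beyond the fewer libraries or the other unit itself. Low depth limits MT-TS1 and MT-TW most, since their values rest on the lowest coverage.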
